A study of Bos taurus with 16 samples.

Results

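The small mitochondrial ATP synthase genes ATP5MD and ATP5MPL and the assembly genes MNF1 and COX18 were followed in cumulus and granulosa cells of cattle (Bos taurus). They are 4 of the 36824 gene entries of the count table and were picked by name. ATP5MD and ATP5MPL encode small subunits of ATP synthase, MNF1 encodes an assembly factor of respiratory complex III, and COX18 encodes an assembly factor of complex IV. Earlier results on these same libraries guided the choice. ATP5MD, ATP5MPL and MNF1 had come up among the named genes with the smallest p between the ovarian sides in cumulus cells, and COX18 for its difference between the cell types. The cumulus side comparison of all 4 genes, and the cell type comparison of COX18, are therefore given as descriptions without a test.

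Cumulus cells surround the oocyte, and granulosa cells line the wall of the follicle. Ipsilateral follicles came from the ovary that bore the corpus luteum, which secretes progesterone after ovulation, and contralateral follicles from the ovary without it. The 4 groups, of 4 libraries each, were ipsilateral and contralateral cumulus cells and ipsilateral and contralateral granulosa cells. The design text states that every pool combined 3 animals; the labels used here give no breed, age or hormone treatment. Whether the same animals gave pools to several groups is not stated, so libraries were treated as unpaired and p values reflect the spread between pools.

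ATP synthase is the rotary enzyme of the inner mitochondrial membrane that makes ATP from the proton gradient built by the respiratory chain. The proteins of ATP5MD (current symbol ATP5MK, also called DAPIT) and ATP5MPL (current symbol ATP5MJ) sit in its membrane part, where small subunits help hold ATP synthase complexes together as dimers. In mammals, UQCC2, the current name linked to MNF1, supports the synthesis of cytochrome b and the early assembly of complex III. COX18 helps insert the mitochondrially encoded subunit COX2 into the inner membrane during assembly of complex IV. Cumulus and granulosa cells supply the oocyte with metabolites, and the granulosa layer has no blood vessels of its own.

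The identity of the rows has limits. RefSeq (assembly ARS-UCD2.0) lists MNF1 as a former name of UQCC2 and also of its neighbour IP6K3, so the complex III role rests on the first reading. Every count of ATP5MD was repeated exactly by the entry ENSBTAG00000009713, and MNF1 differed from ENSBTAG00000054726 by at most 1 count in any library. No such repeat, within 2% or 2 counts in every library, existed for ATP5MPL or COX18. In RefSeq, ATP5MK overlaps TAF5 and holds MIR1307, while ATP5MJ, UQCC2 and COX18 overlap no other gene. The library kits do not mark strand, so reads from an overlap cannot be assigned with certainty.

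The 16 libraries held 10.1 to 21.9 M counts (M, mega). The 4 genes passed the filter on low counts in every comparison, and their lowest count in any library was 47, for COX18. Of the fixed markers, 0 of 15 for cumulus and granulosa cells could be followed by name, so the labelled cell types were not checked against them. The followed markers were 2 of 13 for oocytes (H1FOO and BCL2L10), 1 of 9 for leukocytes (PF4) and 1 of 7 for surface epithelium (MUC16), with none of the theca, endothelial, erythrocyte and luteal lists.

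ATP5MD was lower in cumulus than in granulosa cells, and within cumulus cells its level was higher on the ipsilateral side. Levels are in CPM, counts per 1 M counts of a library adjusted by its TMM factor, and they compare 1 gene across libraries, not genes of different length. In ipsilateral cumulus libraries 1 to 4 the level of ATP5MD was 101, 113, 142 and 122 CPM, against 96.6, 93.9, 80.5 and 78 CPM in contralateral cumulus libraries 1 to 4. In ipsilateral granulosa libraries it was 127, 161, 204 and 146 CPM, against 175, 200, 142 and 158 CPM in contralateral granulosa libraries. Every ipsilateral cumulus library lay above every contralateral one, the granulosa sides overlapped, and of the cumulus libraries only ipsilateral library 3 reached into the granulosa range.

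ATP5MPL varied over much the same range in both cell types. Its level was 163, 135, 197 and 159 CPM in ipsilateral cumulus libraries 1 to 4, against 145, 116, 125 and 120 CPM in contralateral cumulus libraries. It was 119, 171, 204 and 143 CPM in ipsilateral granulosa libraries, against 153, 186, 132 and 141 CPM in contralateral granulosa libraries. Ipsilateral cumulus library 2 lay below contralateral library 1, so the sides overlapped in cumulus as they did in granulosa cells.

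MNF1 was highest in ipsilateral cumulus cells. Its level was 66.7, 67.9, 93.2 and 78.5 CPM in ipsilateral cumulus libraries, against 62, 56.2, 46.5 and 54 CPM in contralateral cumulus libraries. It was 37.8, 56.6, 53.1 and 47.5 CPM in ipsilateral granulosa libraries, against 49.7, 47.4, 45.4 and 45.6 CPM in contralateral granulosa libraries. The ipsilateral cumulus libraries stood apart from all other libraries, while contralateral cumulus libraries 2 to 4 lay within the granulosa range.

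COX18 was the least counted of the 4 genes. Its level was 6.42, 4.31, 7.26 and 7.49 CPM in ipsilateral cumulus libraries, against 6.64, 5.65, 5.64 and 6.19 CPM in contralateral cumulus libraries. It was 12.1, 11.5, 9.56 and 10.3 CPM in ipsilateral granulosa libraries, against 10.3, 11.4, 10.6 and 10.2 CPM in contralateral granulosa libraries. Each granulosa library exceeded each cumulus library, and the sides overlapped in both cell types. The lowest value, in ipsilateral cumulus library 2, rests on 47 counts and has an exact 95% Poisson interval of 3.17 to 5.73 CPM. Intervals of this kind take in counting error alone and leave out the spread between pools. PCR copies are not separate molecules, so the intervals may be too narrow even for counting error.

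**Figure D1:**
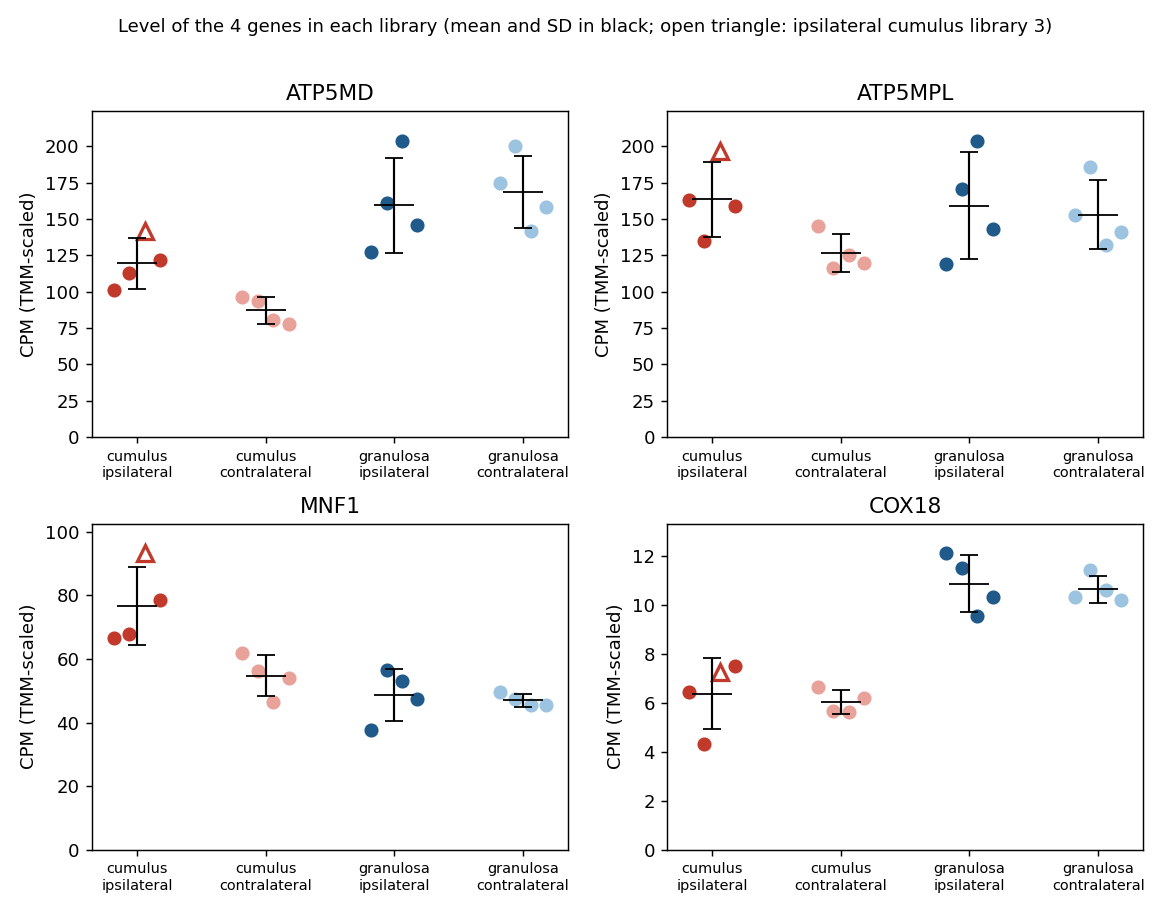
Level of ATP5MD, ATP5MPL, MNF1 and COX18 in CPM (y axis, from 0) in each of the 16 libraries by group (x axis), with black bars for the mean and SD of 4 libraries and an open triangle for ipsilateral cumulus library 3. COX18 lies between 4.31 and 7.49 CPM in cumulus and between 9.56 and 12.1 CPM in granulosa libraries, and the triangle is the highest cumulus library for ATP5MD, ATP5MPL and MNF1.

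The order of the group means differed from gene to gene. ATP5MD averaged 119 ± 17.6 CPM in ipsilateral against 87.3 ± 9.36 CPM in contralateral cumulus libraries, and 160 ± 32.6 CPM in ipsilateral and 169 ± 25.1 CPM in contralateral granulosa libraries (SD, n = 4 each). Contralateral granulosa cells came first and contralateral cumulus cells last, and the granulosa sides lay within their spread. ATP5MPL averaged 163 ± 25.7 and 127 ± 13.1 CPM on these cumulus sides, and 159 ± 36.5 and 153 ± 23.7 CPM on the granulosa sides. Ipsilateral cumulus cells came first for ATP5MPL and contralateral cumulus cells last, and every neighbour in that order overlapped the next.

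For MNF1 the order was ipsilateral cumulus, contralateral cumulus, ipsilateral granulosa and then contralateral granulosa, at 76.6 ± 12.3, 54.7 ± 6.43, 48.8 ± 8.22 and 47 ± 1.99 CPM in that order. The last 3 groups overlapped their neighbours. COX18 averaged 6.37 ± 1.45 CPM in ipsilateral against 6.03 ± 0.481 CPM in contralateral cumulus libraries, below 10.8 ± 1.16 CPM in ipsilateral and 10.6 ± 0.542 CPM in contralateral granulosa libraries. The sides of each cell type lay within their spread for COX18.

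The comparison of cumulus with granulosa cells asked how the genes differ between the cells next to the oocyte and those of the follicle wall. Cumulus cells held less ATP5MD, at 103 ± 21.5 CPM against 164 ± 27.4 CPM in granulosa cells (SD, n = 8 each). The log2 fold change, cumulus minus granulosa, was -0.68 ± 0.10 (SE), a level 1.61-fold higher in granulosa cells, with an adjusted p of 3.22e-05 by edgeR's quasi-likelihood test with Benjamini-Hochberg adjustment over 18038 entries. MNF1 moved the other way, at 65.6 ± 14.8 CPM in cumulus against 47.9 ± 5.61 CPM in granulosa cells. Its log2 fold change was 0.43 ± 0.10 (SE), or 1.35-fold higher in cumulus cells, with an adjusted p of 0.00101 by edgeR.

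ATP5MPL did not pass the same test, at 145 ± 27.3 CPM in cumulus libraries against 156 ± 28.7 CPM in granulosa libraries. Its log2 fold change was -0.12 ± 0.11 (SE), with a 95% interval of -0.35 to 0.12 and an adjusted p of 0.366 by edgeR. For COX18, whose row was chosen for this difference, the mean was 6.2 ± 1.02 CPM over cumulus libraries against 10.7 ± 0.844 CPM over granulosa libraries, and the log2 fold change was -0.79 ± 0.13 (SE), a level 1.73-fold higher in granulosa cells. Among the 3 genes tested, 1 was thus called with the higher level in cumulus cells and 1 with the higher level in granulosa cells. The choice of these 3 genes by side favours a small spread within the cumulus groups. That spread enters this fit too, so the p values of these 3 genes may be too small. Of all entries, 29.9% were called in the cumulus direction and 30.3% in the granulosa direction, so calls of this kind are common. The libraries of the cell types did not overlap for 1 of the 4 genes, COX18, whereas this held for 28% of all entries.

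The differences were also computed within each side. With ipsilateral libraries alone, the log2 fold change of ATP5MD was -0.43 (adjusted p = 0.0469 by edgeR), and with contralateral libraries alone it was -0.93 (adjusted p = 1.91e-04). MNF1 had 0.64 with ipsilateral libraries alone (adjusted p = 0.00749 by edgeR), and with contralateral libraries alone it had 0.24 and did not pass (adjusted p = 0.118). Over 23 alternatives in all, these fits within a side included, the adjusted p ran from 6.98e-09 to 0.0469 for ATP5MD and from 1.9e-04 to 0.118 for MNF1. When each library was left out, edgeR's adjusted p ran from 1.67e-05 to 1.4e-04 for ATP5MD and from 6.85e-04 to 0.00315 for MNF1. ATP5MPL had 0.03 with ipsilateral libraries alone and -0.25 with contralateral ones, neither of which passed. COX18 had -0.77 with ipsilateral and -0.80 with contralateral libraries alone. These side-wise values hold the same cumulus libraries that chose ATP5MD, ATP5MPL and MNF1 by side. The choice favours a wide gap between ipsilateral and contralateral cumulus values, which enters each fit within a side. The side-wise p values are therefore descriptions, and the contrast between the sides was not tested.

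Of the markers of other cell types, PF4 did not overlap between cumulus and granulosa libraries, and MUC16 and the oocyte markers did. PF4, the 1 leukocyte marker of 9 that could be followed, stood at 0 to 0.25 CPM of the unscaled totals in cumulus and 0.426 to 3.68 CPM in granulosa libraries. A level of 3 counts stood at 0.15 to 0.283 CPM in cumulus and 0.137 to 0.298 CPM in granulosa libraries. PF4 thus lay near the floor in cumulus libraries, and 28% of all entries did not overlap between the cell types. MUC16, the 1 surface epithelium marker of 7, stood at 0 to 2.15 CPM in cumulus and 0 to 42.1 CPM in granulosa libraries. The summed oocyte markers stood at 0.682 to 215 CPM in cumulus and 0 to 10.8 CPM in granulosa libraries. Their part in the differences of ATP5MD, MNF1 and COX18 was not tested. In bulk libraries, fewer cells of a type and less RNA per cell cannot be told apart.

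**Figure D2:**
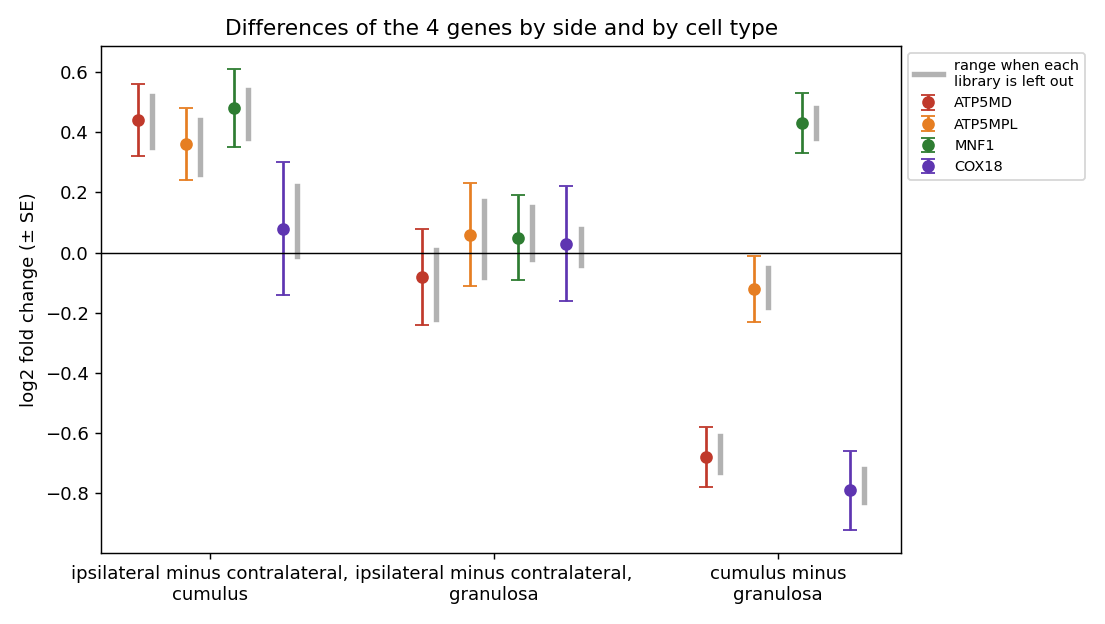
Log2 fold change (y axis) of the 4 genes in the side comparisons of cumulus and of granulosa cells and between the cell types (x axis), with SE bars, and grey lines for the range when each library is left out in turn. The cumulus side values of ATP5MD, ATP5MPL and MNF1 lie between 0.36 and 0.48, the granulosa side values of all 4 genes between -0.08 and 0.06, and between cell types MNF1 lies at 0.43 where ATP5MD lies at -0.68 and COX18 at -0.79.

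The side comparison in granulosa cells is the one for which the genes were not chosen, and it tests whether they differ with closeness to the corpus luteum. None of the 4 passed edgeR's quasi-likelihood test. ATP5MD had 160 ± 32.6 CPM on the ipsilateral and 169 ± 25.1 CPM on the contralateral side (SD, 4 libraries each). Its log2 fold change was -0.08 ± 0.16 (SE), with a 95% interval of -0.43 to 0.27. ATP5MPL had 0.06 ± 0.17 with an interval of -0.32 to 0.44, and MNF1 had 0.05 ± 0.14 with an interval of -0.26 to 0.37. COX18 had 0.03 ± 0.19 with an interval of -0.39 to 0.45.

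Each adjusted p was 1 by edgeR. In all, 0 of 16411 entries passed, or 0%, with 579 at an unadjusted p under 0.05, and DESeq2 called 1 entry, none of the 4 genes. None of the 4 genes had sides that did not overlap in granulosa cells, where 2.25% of all entries did. Whether the side difference itself differs between the cell types was not tested, because the cumulus values chose the genes.

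In cumulus cells the values of ATP5MD, ATP5MPL and MNF1, chosen on this comparison, were higher on the ipsilateral side. ATP5MD had 119 ± 17.6 CPM on the ipsilateral against 87.3 ± 9.36 CPM on the contralateral side, a log2 fold change of 0.44 ± 0.12 (SE) or 1.36-fold. MNF1 had 76.6 ± 12.3 against 54.7 ± 6.43 CPM, a log2 fold change of 0.48 ± 0.13 or 1.39-fold. ATP5MPL had 163 ± 25.7 against 127 ± 13.1 CPM, a log2 fold change of 0.36 ± 0.12 or 1.28-fold. COX18 had 6.37 ± 1.45 against 6.03 ± 0.481 CPM, a log2 fold change of 0.08 ± 0.22. These values chose the genes and carry no test.

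In this comparison edgeR passed 0 of 16323 entries, or 0%, with 1791 at an unadjusted p under 0.05, and DESeq2 called 120 entries, none of them one of the 4 genes. The median log2 fold change of all entries was -0.01. The sides did not overlap for ATP5MD and MNF1, and this held for 4.96% of all entries. Total counts were 10.6 to 15.9 M in ipsilateral and 14.9 to 20 M in contralateral cumulus libraries, and the part of depth in the side values was not tested. The 2 oocyte markers of 13 summed to 0.682 to 1.41 CPM of the unscaled totals in ipsilateral and 0.871 to 215 CPM in contralateral cumulus libraries, with the highest value in contralateral library 4, and their part was not tested. Without that library the log2 fold changes were 0.40 for ATP5MD, 0.34 for ATP5MPL, 0.47 for MNF1 and 0.09 for COX18.

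Ipsilateral cumulus library 3 was set apart because earlier results had named it as the highest library for genes of this kind. It held ATP5MD at 142 CPM, where the other ipsilateral cumulus libraries averaged 112 ± 10.6 CPM (SD, n = 3). It held ATP5MPL at 197 against 152 ± 15.2 CPM, and MNF1 at 93.2 against 71 ± 6.51 CPM. COX18 stood at 7.26 CPM there, inside the range of the other 3 libraries, which averaged 6.08 ± 1.62 CPM. Library 3 was the highest of the 8 cumulus libraries for the first 3 genes and the second highest for COX18.

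Against the mean of the other 7 cumulus libraries, the log2 ratio of library 3 was 0.56 for ATP5MD, 0.53 for ATP5MPL, 0.61 for MNF1 and 0.26 for COX18. Against the other ipsilateral cumulus libraries alone they were 0.35, 0.38, 0.39 and 0.27 in the same order. Among 14844 entries the ratios to the other 7 libraries stood at the percentiles 96.5, 95.9, 97.3 and 83.7. ATP5MD, ATP5MPL and MNF1 were chosen by cumulus side, and library 3 as the highest for such genes. Their high percentiles are therefore partly built in, and are descriptions. Library 3 was not unusual in its spread over all entries. The SD of the ratio to the other 7 libraries was 0.36 there and 0.35 to 0.62 in the cumulus libraries. Its total of 14.7 M counts lay inside the range of the other cumulus libraries.

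Leaving library 3 out lowered the cumulus side values, and none changed sign. ATP5MD then had a log2 fold change of 0.35, ATP5MPL 0.26, MNF1 0.38 and COX18 0.01. For each of the first 3 genes this was the lowest value reached when any 1 of the 8 libraries was left out, and the highest values were 0.52, 0.44 and 0.54. The ipsilateral means without library 3 were 112 CPM for ATP5MD, 152 CPM for ATP5MPL and 71 CPM for MNF1. Library 3 held the highest values of ATP5MD and MNF1, so leaving it out could not make their sides overlap or turn their sign. Their lowest ipsilateral values, 101 and 66.7 CPM, came from library 1. Between the cell types, leaving library 3 out gave -0.73 for ATP5MD and 0.38 for MNF1.

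Below library 3, the order of the libraries differed between the genes. Ipsilateral library 4 was the second highest for ATP5MD and MNF1, with log2 ratios to the other 7 libraries of 0.30 and 0.33. Contralateral libraries 3 and 4 were the lowest for ATP5MD, at -0.38 and -0.43, and contralateral library 3 was the lowest for MNF1, at -0.53. For ATP5MPL the second highest was ipsilateral library 1, at 0.21, where ATP5MD stood at -0.01, and the lowest was contralateral library 2, at -0.34. In ipsilateral library 2 ATP5MPL stood at -0.10. COX18 had its lowest ratio, -0.53, in the same library, where ATP5MD stood at 0.17.

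**Figure D3:**
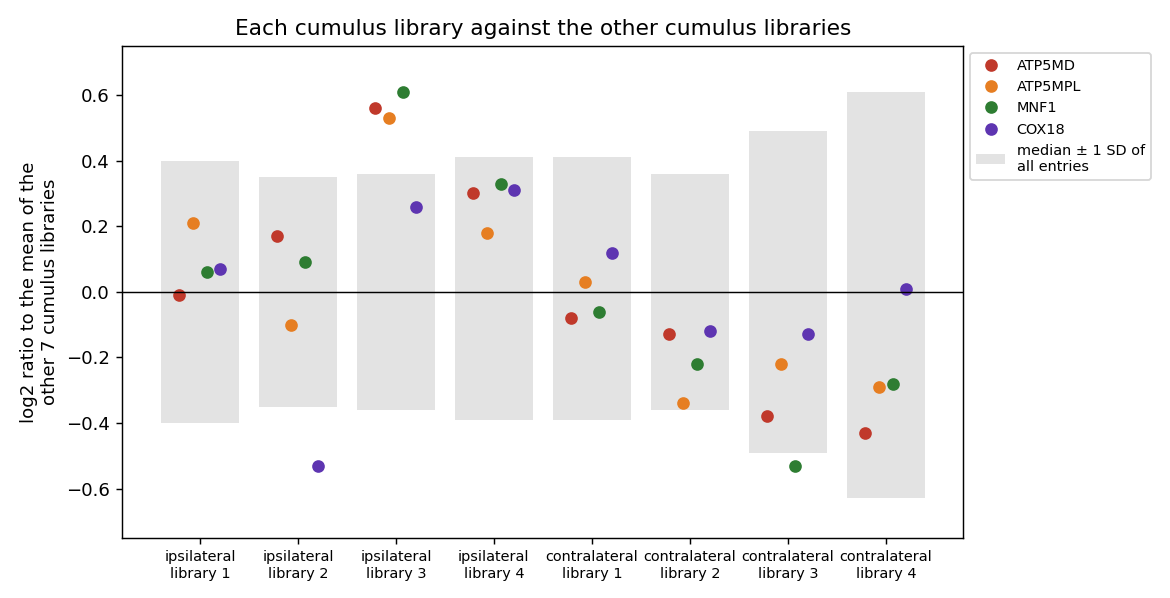
Log2 ratio (y axis) of each of the 8 cumulus libraries (x axis) to the mean of the other 7, as points for the 4 genes, with grey bars for the median ± 1 SD over 14844 entries. In ipsilateral library 3 the points of ATP5MD, ATP5MPL and MNF1 lie at 0.53 to 0.61, above the grey bar, and in ipsilateral library 2 COX18 lies at -0.53. ATP5MD, ATP5MPL, MNF1 and library 3 were chosen with values of these libraries known.

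Over the 8 cumulus libraries, ATP5MD and MNF1 had a Pearson r of 0.96 on log2 CPM, ATP5MPL and MNF1 one of 0.88, and ATP5MD and ATP5MPL one of 0.83. Without library 3 these were 0.93, 0.77 and 0.68 over 7 libraries. Over the 8 granulosa libraries, which did not choose the genes, ATP5MD and ATP5MPL had an r of 0.94, ATP5MPL and MNF1 0.78, and ATP5MD and MNF1 0.65. COX18 had an r between 0.31 and 0.60 with the other genes in cumulus and between -0.43 and -0.35 in granulosa libraries. Without ipsilateral library 3 its r was 0.06 with ATP5MD, 0.27 with MNF1 and 0.49 with ATP5MPL, beside 0.31, 0.45 and 0.60 with that library. Over all 16 libraries r was 0.68 for ATP5MD and ATP5MPL, 0.44 for ATP5MPL and MNF1 and -0.17 for ATP5MD and MNF1. COX18 had 0.76 with ATP5MD, 0.31 with ATP5MPL and -0.53 with MNF1 there. An r over all 16 libraries takes in the difference between the cell types, for which COX18 was chosen. The cumulus libraries chose ATP5MD, ATP5MPL and MNF1 by side, so a high r among these genes in cumulus cells is partly built in. All values of a library also share its depth and scaling, so these correlations are descriptions.

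Ratios of counts within a library do not depend on depth or scaling, and 6 were computed over the pairs of the 4 genes. The cell types did not overlap in 4 of the 6. The share over pairs of other entries was not computed, and the levels of 28% of all single entries did not overlap either. The count is therefore a description. The count ratio of ATP5MD to ATP5MPL was 0.618, 0.838, 0.722 and 0.765 in ipsilateral and 0.664, 0.808, 0.645 and 0.652 in contralateral cumulus libraries. It was 1.07, 0.943, 0.998 and 1.02 in ipsilateral and 1.14, 1.08, 1.07 and 1.12 in contralateral granulosa libraries. Every cumulus library lay below every granulosa library, with means of 0.714 ± 0.0821 in cumulus and 1.05 ± 0.065 in granulosa cells (SD, n = 8 each).

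The ratio of ATP5MD to MNF1 was 1.58 ± 0.0971 in cumulus and 3.43 ± 0.444 in granulosa cells, with ranges of 1.44 to 1.73 and 2.85 to 4.23. In cumulus cells this ratio was nearly the same on both sides, at 1.56 ± 0.0695 in ipsilateral and 1.60 ± 0.127 in contralateral libraries (SD, n = 4 each). Both genes were chosen on the cumulus side comparison and were higher on the ipsilateral side there, so this likeness is partly built in. The ratio of ATP5MPL to MNF1 was 2.23 ± 0.24 in cumulus and 3.25 ± 0.397 in granulosa cells, again without overlap. The ratios to COX18 include the gene chosen for its difference between the cell types. That of MNF1 ranged from 8.24 to 15.7 in cumulus and from 3.12 to 5.56 in granulosa libraries. The other two overlapped, with ATP5MD to COX18 at 12.6 to 26.2 in cumulus and 10.5 to 21.3 in granulosa libraries, and ATP5MPL to COX18 at 19.3 to 31.2 in cumulus and 9.85 to 21.3 in granulosa libraries. Such a ratio shows that a pair of genes differed unequally between the cell types, and not which of the pair differed.

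**Figure D4:**
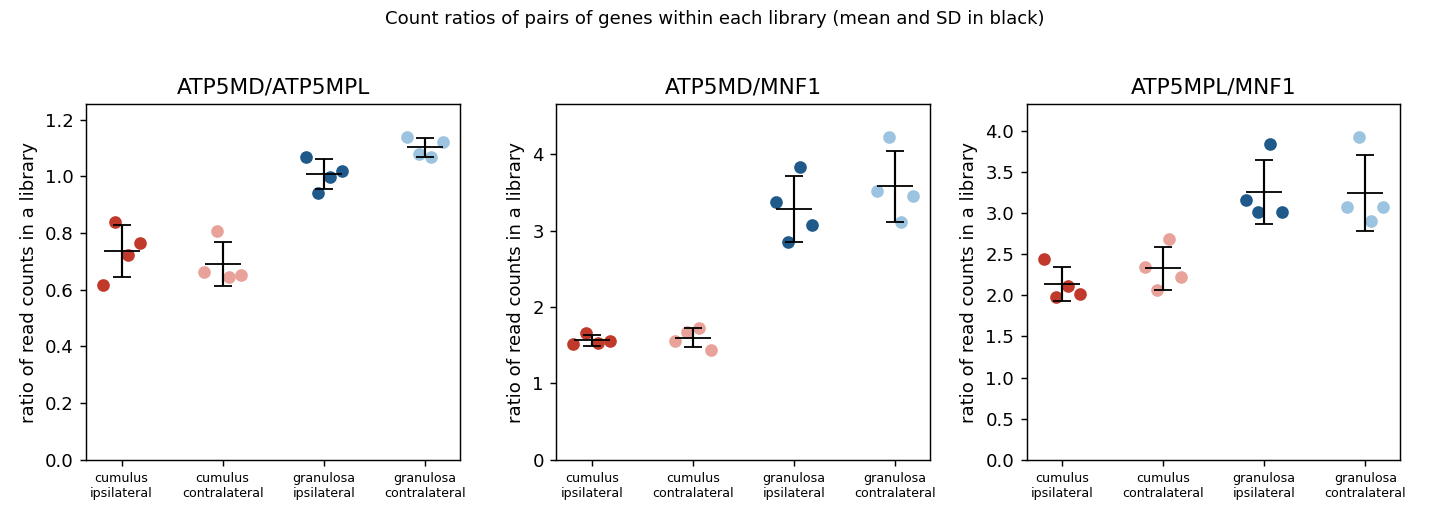
Ratio of read counts (y axis, from 0) of ATP5MD to ATP5MPL, ATP5MD to MNF1 and ATP5MPL to MNF1 in each library by group (x axis), with black bars for the mean and SD of 4 libraries. For ATP5MD to MNF1 the cumulus libraries lie between 1.44 and 1.73 and the granulosa libraries between 2.85 and 4.23.

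By likeness of log2 CPM over all 16 libraries, among 750 other entries with a symbol, ATP5MD was nearest to SNURF (Pearson r = 0.97), SEPT7 (0.93) and OST4 (0.93). ATP5MPL was nearest to FAM96A (0.87), OST4 (0.82) and MINOS1 (0.80), and MNF1 to SMIM37 (0.90), DYNLT1 (0.89) and C3H1orf123 (0.88). Among the entries nearest to COX18 were C11H9orf16 and PQLC2, each with an r of 0.90. Within the 8 cumulus libraries, SEPT7 (0.98), ZNRD1 (0.97) and OST4 (0.96) were nearest to ATP5MD, and SMIM37 (0.95), SMIM26 (0.94) and MINOS1 (0.90) to ATP5MPL. MNF1 was there nearest to C3H1orf123 (0.97), ATP5MD (0.96) and SEPT7 (0.95), and COX18 to CNTN5 (0.86), C3H1orf189 (0.85) and ZNF584 (0.85). The likeness of MNF1 and ATP5MD there is partly built in, since these cumulus libraries chose both.

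A list of 316 genes of the respiratory complexes, their assembly, mitochondrial import, the mitochondrial ribosome and other mitochondrial functions was searched by name. Only 13 entries matched, the 4 genes and 9 others, since most entries carry Ensembl IDs that could not be named. Between the cell types 3 of the 9 passed with the higher level in cumulus cells, 3 with the higher level in granulosa cells and 3 did not pass, with a median log2 fold change of 0.15 beside 0.11 over the 750 entries with a symbol and 0.03 over all entries. Over all entries, 29.9% passed with the higher level in cumulus and 30.3% with the higher level in granulosa cells, close to the 3 of 9 in each direction.

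MRPL14, a protein of the mitochondrial ribosome, had 121 CPM in cumulus against 293 CPM in granulosa cells, a log2 fold change of -1.28 ± 0.11 (SE) with an adjusted p of 5.33e-08 by edgeR. PHB (PHB1), which encodes the inner membrane chaperone prohibitin, had -0.25 ± 0.05 (adjusted p = 8.66e-04 by edgeR). FAM96B (CIAO2B), counted with the list although it belongs to the cytosolic iron-sulfur assembly machinery, had -0.26 ± 0.10 (adjusted p = 0.0327 by edgeR). Higher in cumulus cells were MARC2 (MTARC2), an outer membrane reductase, with 1.09 ± 0.20 (adjusted p = 2.07e-04), and FAM173A (ANTKMT), which methylates the ADP/ATP carrier, with 0.75 ± 0.30 (adjusted p = 0.0422 by edgeR). LOC100139115, named SURF1 by its NCBI gene number and a complex IV assembly factor like COX18, had 17.8 CPM in cumulus against 10.4 CPM in granulosa cells, a log2 fold change of 0.74 ± 0.27 (adjusted p = 0.0287 by edgeR), opposite in sign to COX18.

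Several of these calls depended on the libraries. MRPL14 was called under all 23 alternatives. With ipsilateral libraries alone the log2 fold changes were -0.20 for PHB (adjusted p = 0.0901), 0.67 for MARC2 (0.0659), -0.04 for FAM96B (0.843), 0.04 for LOC100139115 (0.921) and -0.03 for FAM173A (0.956), none of which passed by edgeR. PHB and MARC2 were called under the other 22 alternatives, and over all 23 their adjusted p ran from 5.98e-06 to 0.0901 and from 1.24e-06 to 0.0659.

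FAM96B also lost its call without any 1 of 6 libraries, ipsilateral cumulus 1, contralateral cumulus 3 and 4, ipsilateral granulosa 2 and 3 and contralateral granulosa 2 (adjusted p from 0.0546 to 0.0826 by edgeR, and from 0.00561 to 0.843 over all alternatives). LOC100139115 lost it with limma-voom and without any 1 of 5 libraries, ipsilateral cumulus 3, contralateral cumulus 3, ipsilateral granulosa 3 and 4 and contralateral granulosa 2 (adjusted p from 0.0505 to 0.0849 by edgeR, and from 0.0023 to 0.921 over all alternatives). FAM173A lost it with limma-voom, without the filter, and when any 1 of 11 libraries was left out, where edgeR's adjusted p lay between 0.0587 and 0.106 (over all alternatives, between 0.00501 and 0.956). These were ipsilateral cumulus 2, 3 and 4, contralateral cumulus 3 and 4, ipsilateral granulosa 2, 3 and 4 and contralateral granulosa 1, 2 and 4.

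The remaining complex IV assembly genes were APOPT1 (COA8), with 0.12 ± 0.11, and CHCHD8 (COA4), with 0.15 ± 0.12, and ATP5S (DMAC2L), named for ATP synthase, had 0.22 ± 0.14. These 3 did not pass. MRPL14, FAM173A, MARC2 and ATP5S overlap another gene in RefSeq.

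Between the sides none of the 9 passed in either cell type, and the log2 fold change of 6 of 9 was above 0 in each. Over all entries 48.2% lay above 0 in cumulus and 51% in granulosa cells. The 6 genes were not the same in both cell types. LOC100139115 and FAM173A had -0.85 and -0.66 in cumulus but 0.52 and 0.89 in granulosa cells. The medians of the 9 were 0.09 in cumulus cells, beside -0.01 over all entries, and 0.13 in granulosa cells, beside 0.01. In cumulus cells the values ran from 0.28 ± 0.09 (SE) for FAM96B to -0.85 ± 0.40 for LOC100139115. In ipsilateral cumulus library 3, 7 of the 9 lay above the mean of the other 7 cumulus libraries, with a median log2 ratio of 0.15. Ipsilateral library 4 was close to this, with 6 of the 9 and a median of 0.14. The remaining cumulus libraries had 1 to 5 of the 9 above, with medians of -0.19 to 0.03. Over all entries the medians were -0.01 to 0.01. In library 3 ATP5S stood at 0.55, close to ATP5MD and ATP5MPL, while MARC2 stood at -0.37 and PHB at 0.03.

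**Figure D5:**
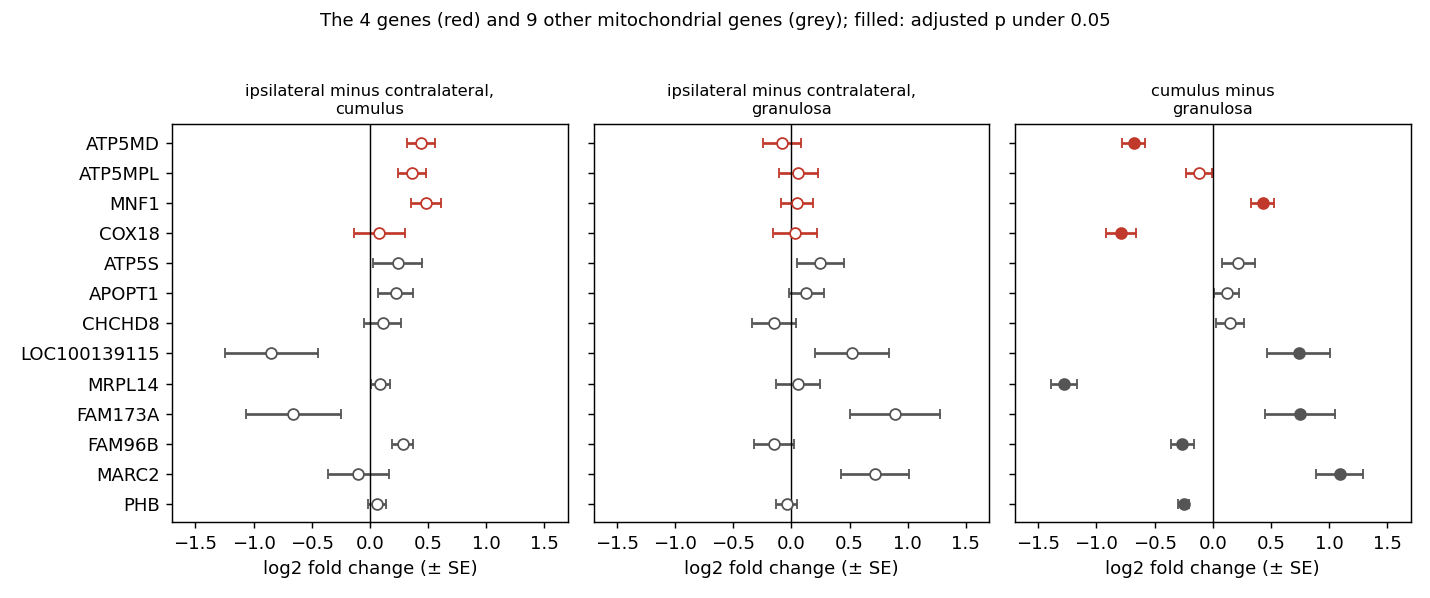
Log2 fold change with SE (x axis) of the 4 genes (red) and 9 other genes of the mitochondrial list (grey, y axis) in 3 comparisons, with filled points for an adjusted p under 0.05 by edgeR. The fill is a description for COX18 between the cell types and for the 4 genes in the cumulus side comparison, which guided their choice. No point is filled in the side comparisons, and between the cell types MRPL14 lies lowest at -1.28 and MARC2 highest at 1.09.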

How the data were processed

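RNA of pooled cumulus or granulosa cells was sequenced in 16 libraries, 4 per group, as 75 bp single-end reads from SMART-Seq HT and Nextera XT preparations, per the labels' protocols. FastQC, Trimmomatic, STAR and DESeq2 appear in the submitters' processing notes. The sources used here name no genome build, annotation or counter. The values are raw counts per gene entry as deposited, with columns assigned to samples through the titles.

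edgeR 4.0.16 in R 4.3.3 was used with filterByExpr (count at least 10, total at least 15), TMM factors and the robust quasi-likelihood F-test, with Benjamini-Hochberg adjustment over all entries and calls at an adjusted p under 0.05. SEs derive from the fold change and its F value, and intervals from the t distribution. Side comparisons used 8 libraries, the cell type comparison 16 with 4 group means. Library ratios and correlations used log2(CPM + 0.5), and ratios over all entries took those with at least 160 counts in the cumulus libraries together. Scripts were tested on simulated data. No pair of replicates agreed within counting noise.

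The 4 genes, lists and markers were chosen with earlier results of these data known. Named beside them are listed genes that passed the cell type test and the 3 most alike symbol entries per gene. Alternatives were RLE scaling, no filter, DESeq2 1.42.0, limma-voom (limma 3.58.1), removal of exact repeats, other library sets and each library left out. A planned description by protein length was not made. In the comparison of likeness, an entry near COX18 is not reported here.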

Additional observations from a re-analysis of the deposited data

Results flagged for a closer look

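The count ratio of ATP5MD to ATP5MPL in contralateral cumulus library 2 was 0.808, where the other 3 contralateral cumulus libraries had 0.645, 0.652 and 0.664. Its gap to the nearest of them was 0.883 of the whole range of the group. Of 40 groups of 4 libraries examined, 4 levels and 6 ratios in each group, this was the only library that stood so far from the others, and chance marks about 1 group in 20. The value lies inside the range of the ipsilateral cumulus libraries, 0.618 to 0.838.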

How the results depend on the processing

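The number of entries called between the cell types ran from 10582 to 11055 when each library was left out. The side comparisons gave 0 calls without any 1 library, but DESeq2 called 120 entries in cumulus and 1 in granulosa cells. Between the cell types, when each library was left out, the log2 fold change ran from -0.73 to -0.61 for ATP5MD, from -0.18 to -0.05 for ATP5MPL and from 0.38 to 0.48 for MNF1. ATP5MPL turned to 0.03 with ipsilateral libraries alone (adjusted p = 0.909, and 0.106 to 0.909 over 23 alternatives), and MNF1 lost its call at 0.24 with contralateral libraries alone (adjusted p = 0.118), where the cause was not tested. Values within a side hold the cumulus libraries that chose these genes by side, and are descriptions. No other alternative changed a call of ATP5MD, ATP5MPL or MNF1 between the cell types.

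Side values near 0 changed sign. In granulosa cells, leaving out each library gave -0.22 to 0.01 for ATP5MD, -0.08 to 0.17 for ATP5MPL, -0.02 to 0.15 for MNF1 and -0.04 to 0.08 for COX18. In cumulus cells COX18 ran from -0.01, without ipsilateral library 4, to 0.22. The cause was not tested. RLE scaling and the other tools turned no sign of the 4 genes. No paired analysis was possible because the labels give no replicate numbers shared between groups. COX18, at 47 to 228 counts per library, is the gene that depth limits most. With 4 libraries a group, the granulosa side interval of COX18 reached from -0.39 to 0.45 on the log2 scale.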
